A study of Mus musculus with 24 samples.

Results

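BAF complexes, the mammalian SWI/SNF chromatin remodellers, are assembled from subunits that can each be taken from a small family of paralogs. The RNA levels of 10 genes from 4 of these families were followed from embryonic stem cells (ESCs) of the mouse to neural progenitors (NPCs). They encode the ATPases (Smarca4 and Smarca2), the scaffold subunits BAF155 and BAF170 (Smarcc1 and Smarcc2), the actin-related subunits BAF53a and BAF53b (Actl6a and Actl6b) and the PHD finger subunits (Phf10, Dpf2, Dpf1 and Dpf3). The genes were chosen by name, and all 10 were found once among the 21909 gene symbols of the RNAseq tables.

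A BAF complex slides or evicts nucleosomes with the energy of ATP, which its single catalytic subunit hydrolyses. In ESCs the complex is known to be built around Smarca4 and paired Smarcc1 subunits, together with Actl6a and the PHD finger proteins Phf10 or Dpf2. Neural progenitors keep Actl6a and Phf10 and also take up Smarcc2 and Smarca2, and neurons that have left the cell cycle replace Actl6a by Actl6b and Phf10 by Dpf1 or Dpf3.

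The study mapped contacts of the genome with the nucleolus and measured gene expression by RNAseq of poly(A) RNA, with 3 ESC and 3 NPC samples. E14 ESCs, an established mouse line, were grown without feeder cells in 2i medium with 1000 U/ml LIF, the GSK3β inhibitor CHIR99021 (3 µM) and the MEK inhibitor PD0325901 (1 µM). NPCs were derived from ESCs as embryoid bodies in suspension over 8 days in medium with fetal calf serum, with 2 µM retinoic acid during the last 4 days. They were sequenced in bulk, so fewer cells of a type and less RNA per cell cannot be told apart. The values of ESCs and NPCs stand in separate tables, so a difference in preparation and the difference between the cell types cannot be told apart.

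The deposited unit is RPKM, reads per kilobase of gene per 1e6 reads, and its kilobases turned out to be those of the whole gene span, introns included. Multiplied by the RefSeq gene spans, the values of a sample summed to between 939428 and 953580 per 1e6 reads (M). The worth of 1 read was fitted on the steps between low values multiplied by the span. Of the low values (up to 20 reads), 67.2% to 69.4% were then whole numbers of reads within 0.1 when the span was used. The same worth of 1 read gave 20.6% to 21.9% with the exon length, without a fit of its own, so these shares are not an even comparison. The steps put the depth at 34.0, 33.7 and 30.7 M reads in ESC replicates 1, 2 and 3 and at 30.1, 27.2 and 32.3 M in NPC replicates 1, 2 and 3. A gene with long introns has a low RPKM on this scale, and the span was 72.6 times the exon length for Dpf3, 27.7 times for Smarca2 and 3.63 times for Phf10. RPKM are therefore compared within a gene, and levels of different genes are compared as reads per 1e6 reads (RPM) per kb of exons. The study's methods speak of coverage of exons. If reads in introns were counted as well, levels per kb of exons, and the shares and ranks made from them, are too high most of all for genes with long introns such as Dpf3 and Smarca2, which was not tested.

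ESC replicate 3 stood apart from the other samples. Its RPKM summed to 141243, against 105011 and 106892 in ESC replicates 1 and 2. Across 6981 genes, which are not independent replicates, the correlation of log2(RPKM + 1) between ESC replicates 1 and 2 was 0.998, whereas replicate 3 reached 0.960 and 0.963 with them. Its difference followed the length of the transcript, with a median log2 difference to the other ESC samples of 0.50 over the 1746 genes with the shortest exons (320 to 1979 bases) and of -0.41 over the 1745 genes with the longest (5063 to 41725 bases). The same medians lay between -0.01 and 0.01 in each NPC sample.

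Among the BAF subunits, the RPKM of ESC replicate 3 was 0.590 times the mean of the other ESC samples for Smarca4, 0.485 times for Smarca2, 0.515 times for Smarcc1 and 0.472 times for Smarcc2. These genes have 5445 or more bases of exons in curated RefSeq mRNAs, whereas the lengths in the preceding paragraph count all RefSeq exons. The ratio was 0.700 for Dpf2 (3356 bases) but 0.944 for the longer Phf10 (4481 bases), 0.960 for Dpf1 and 0.990 for Actl6a, which has the shortest exons of these 8 genes (1969 bases). What sets this sample apart was not tested, and the changes of the subunits are given with and without it.

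**Figure D1:**
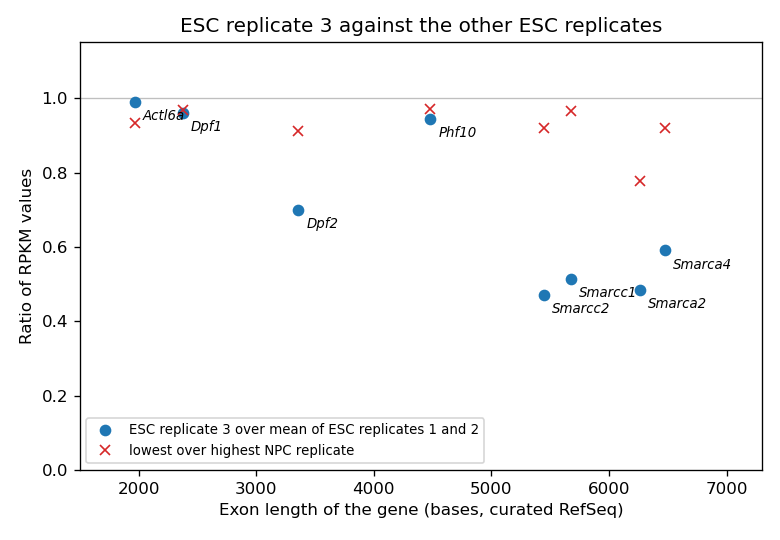
RPKM of ESC replicate 3 divided by the mean of ESC replicates 1 and 2 (circles), and of the lowest NPC replicate divided by the highest (crosses), against the exon length of the gene in bases, for the 8 BAF subunit genes above 0 in every ESC sample. The 4 genes with the longest exons lie between 0.472 and 0.590, and the NPC ratios lie between 0.778 and 0.972.

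The cell type labels were set against fixed marker lists. Sums and ranks within these lists are in RPKM per gene span, so genes with long introns weigh less in them. All 8 pluripotency markers fell in NPCs (against 34.7% of all genes tested). Their summed level was 1670, 1661 and 3526 RPKM in the ESC samples and 9.63, 9.49 and 8.94 RPKM in the NPC samples. Pou5f1, which encodes OCT4, had 130.0, 136 and 202 RPKM in ESCs and 0.0558, 0.0386 and 0.0651 RPKM in NPCs. Zfp42 (REX1) had a mean of 40.9 RPKM ± 2.92 (SD, n = 3) in ESCs and of 0.0137 RPKM ± 0.00685 (SD, n = 3) in NPCs. The most abundant marker of this list was Dppa5a in ESCs, with 1911 RPKM on average, and Tbx3 in NPCs, with 7.00 RPKM.

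All 8 neural progenitor markers were higher in every NPC sample than in every ESC sample, as were 45.6% of 18217 genes without a filter. The markers summed to 6.57, 6.02 and 5.57 RPKM in ESCs and to 50.0, 57.7 and 57.4 RPKM in NPCs. Nes, the intermediate filament nestin, was the most abundant of them in both cell types and averaged 3.46 RPKM in ESCs and 30.6 RPKM in NPCs. Pax6, the transcription factor by which the labels define the NPCs, averaged 0.0115 RPKM in ESCs and 1.55 RPKM in NPCs, and Hes5 and Zic1 were at 0 in all ESC samples.

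Of the 8 neuron markers, 6 were higher in every NPC sample than in every ESC sample, from low levels (against 45.6% of all genes). The other 2, Tubb3 and Stmn2, were lower (against 27.3%). Per gene span, the sum of the list followed these 2, with 11.1, 12.2 and 14.5 RPKM in ESCs and 6.96, 5.65 and 6.72 RPKM in NPCs. On this scale most of it came from Tubb3, whose mean was 7.28 RPKM in ESCs and 4.15 RPKM in NPCs. Sums per kb of exons were not computed for the marker lists. Stmn2 averaged 5.28 and 0.306 RPKM, and Elavl3, among the higher ones, 0.0250 and 0.826 RPKM. The other neuronal markers in NPCs lay between 0.00807 RPKM for Syt1 and 0.916 RPKM for Dcx, and Dcx and Syt1 were at 0 in all ESC samples.

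The NPC samples also held RNA of other lineages. The 8 mesenchyme markers summed to 0.310, 0.333 and 0.193 RPKM in ESCs and to 99.7, 107 and 102 RPKM in NPCs, led by Foxf1 with a mean of 26.7 RPKM, and Foxf1 was at 0 in all ESC samples. The 6 endoderm markers summed to at most 0.115 RPKM in an ESC sample and to 14.7, 16.2 and 15.7 RPKM in NPCs, led by Gata6 with 6.69 RPKM, with Afp and Ttr at 0 in all ESC samples. The 8 cardiac and smooth muscle markers summed to 2.24, 2.29 and 4.01 RPKM in ESCs and to 13.9, 21.2 and 23.5 RPKM in NPCs, led by Myl7 with 12.1 RPKM. No marker of these lists was at 0 in all NPC samples. Of the 8 proliferation genes, 1 rose and 5 fell (against 33.1% and 34.7% of all genes tested), and their sum was 162, 159 and 142 RPKM in ESCs and 112, 117 and 115 RPKM in NPCs, with Ccnb1 the most abundant in ESCs (40.8 RPKM) and Mki67 in NPCs (25.4 RPKM). The part of these other cells and of proliferation in the changes of the BAF subunits was not tested.

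Of the 10 subunit genes, 7 had a mean of at least 1 RPKM over the 6 samples and entered the test across all genes, limma on log2(RPKM + 1) with Benjamini-Hochberg adjustment. Smarcc2, Dpf1, Smarca4, Phf10 and Dpf2 rose in NPCs (5 of 7, against 33.1% of all 7289 genes tested), Actl6a fell (1 of 7, against 34.7%) and Smarcc1 was not called. Either call was made for 6 of 7 subunits and for 67.8% of all genes, so being called did not set the subunits apart, and their levels and the sizes of the changes are described instead. Without ESC replicate 3 these 5 genes rose (against 40.5% of all genes) and Actl6a fell (against 46.6%), and 87.1% of all genes were called. Their directions were also those under median-of-ratios scaling and quantile normalization. Smarca2, Actl6b and Dpf3 had a mean below 1 RPKM and are described from a fit without this filter, which calls 62.4% of 18504 genes, 39.4% higher and 23.0% lower in NPCs. Limma voom on reads recovered from the RPKM, an alternative added once the data had been seen, called 73.6% of 14112 genes, 45.1% higher and 28.4% lower. Each of these fits called 8 subunits higher and 1 lower.

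The ATPases were dominated by Smarca4 in both cell types. Smarca4, on chromosome 9 from 21616106 to 21704230 and also called BRG1, had 4.26, 4.44 and 2.57 RPKM in ESC replicates 1, 2 and 3 and 6.12, 6.65 and 6.41 RPKM in the NPC replicates. Every NPC sample lay above every ESC sample, and the low ESC value is that of replicate 3. The log2 fold change was 0.66 ± 0.17 (SE; limma, adjusted p = 0.0136). It was 0.47 ± 0.047 (SE) without ESC replicate 3, and the call was lost without NPC replicate 2 (limma, adjusted p = 0.0509, in a range of 4.59e-05 to 0.0509 over the alternatives).

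Smarca2, also called BRM, is the other ATPase that the complex can contain. It had 0.0251, 0.0291 and 0.0131 RPKM in the ESC samples, which are 148, 170 and 70 reads, and 0.253, 0.202 and 0.197 RPKM in the NPC samples, which are 1319, 952 and 1099 reads. The groups did not overlap, and the mean in NPCs was 9.67 times that in ESCs, or 8.01 times without ESC replicate 3. On the log2(RPKM + 1) scale, which compresses changes of values far below 1, the change was 0.25 ± 0.019 (SE; limma without a filter, adjusted p = 0.000156), with 0.14 under quantile normalization and 1.37 with a pseudocount of 0.1. Limma voom gave 3.31 ± 0.28 (SE; adjusted p = 4.99e-05, in a range of 4.99e-05 to 0.00142 over the alternatives).

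Per kb of exons, Smarca4 had 51.1 ± 14.1 RPM in ESCs and 87.0 ± 3.62 in NPCs (SD, n = 3 each), and Smarca2 had 0.621 ± 0.230 and 6.00 ± 0.858. Smarca2 thus made up 1.18%, 1.31% and 1.03% of the ATPase sum in the ESC samples and 7.74%, 5.81% and 5.87% in the NPC samples. Taken per gene span, as RPKM, its share averaged 0.581% in ESCs and 3.295% in NPCs. The share was higher in every NPC sample although both genes had higher levels there, and Smarca4 supplied the rest of the sum. The log2 ratio of Smarca2 to Smarca4 computed from RPKM with a pseudocount of 1 went the other way, by -0.41 from ESCs to NPCs, or -0.22 without ESC replicate 3. It was 0.58 with a pseudocount of 0.1, and 1.32 from levels per kb of exons, which was added after the data had been seen.

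The scaffold subunits form the dimer on which the complex is assembled. Smarcc1 (BAF155) had 4.20, 4.23 and 2.17 RPKM in the ESC samples and 4.27, 4.24 and 4.12 RPKM in the NPC samples. Apart from ESC replicate 3, the samples of both cell types lay within 4.12 to 4.27 RPKM and overlapped. The log2 fold change was 0.24 ± 0.20 (SE; limma, adjusted p = 0.326), and -0.0012 ± 0.038 (SE; limma, adjusted p = 0.977, in a range of 0.19 to 0.977 over the alternatives) without ESC replicate 3.

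Smarcc2 (BAF170) showed the largest rise among the 7 subunits tested. It had 1.49, 1.53 and 0.711 RPKM in the ESC samples and 6.38, 6.92 and 6.36 RPKM in the NPC samples. All NPC samples were above all ESC samples, and the lowest ESC value is that of replicate 3. The log2 fold change was 1.77 ± 0.16 (SE; limma, adjusted p = 0.000114) and 1.59 ± 0.047 (SE) without ESC replicate 3, where the ratio of the means was 4.35 instead of 5.28.

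In RPM per kb of exons, Smarcc1 had 67.4 ± 22.5 in ESCs and 80.3 ± 1.52 in NPCs, and Smarcc2 had 7.16 ± 2.65 and 37.8 ± 1.82 (SD, n = 3 each). The share of Smarcc2 in the scaffold sum was 9.68%, 9.84% and 9.03% in ESCs and 31.1%, 33.0% and 31.8% in NPCs. Because both genes were low in ESC replicate 3, its share lay close to that of the other ESC samples, although its levels did not. Taken per gene span, as RPKM, the share of Smarcc2 was 25.8% ± 0.963 in ESCs and 60.9% ± 1.05 in NPCs (SD, n = 3 each), so the order of these genes in NPCs depended on the length used.

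The actin-related subunits bind the ATPase and are shared with actin itself in the same module. Actl6a (BAF53a) had 10.99, 11.43 and 11.10 RPKM in the ESC samples and 4.07, 4.37 and 4.28 RPKM in the NPC samples. It was the only subunit gene that was lower in every NPC sample than in every ESC sample, and ESC replicate 3 did not differ from the others here. It fell by 1.22 ± 0.074 (SE) on the log2 scale (limma, adjusted p = 1.60e-05), also by 1.22 without ESC replicate 3, and the mean in ESCs was 2.64 times that in NPCs.

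Actl6b (BAF53b), its counterpart of neurons, was at 0 in all ESC samples and had 0.0495, 0.0342 and 0.0694 RPKM in the NPC samples, which are 24, 15 and 36 reads. All NPC samples were thus above the ESC samples, at a very low level. With a floor of 3 reads over the 98.5 M reads of the ESC group, the 75 reads among 89.6 M in NPCs were 27.5-fold above this floor. They were 17.98-fold, 18.06-fold and 18.9-fold above it without ESC replicate 1, 2 or 3. The 75 NPC reads were taken as exact here, so these ratios are not strict lower bounds. In NPCs Actl6b reached 0.530 ± 0.183 RPM per kb of exons (SD, n = 3), against 39.7 ± 1.42 for Actl6a, and its share of their sum was 1.33%, 0.861% and 1.77%. The fall of Actl6a was therefore not made up by Actl6b, and the summed level of the pair went from 105 to 40.2 RPM per kb of exons. Floors and intervals of reads cover counting error only, since reads are not independent molecules.

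The PHD finger subunits read modified histone tails, and Dpf2 and Phf10 are their widely expressed members. Phf10 (BAF45a), a subunit of the polybromo form of the complex, had 4.10, 4.02 and 3.84 RPKM in the ESC samples and 6.73, 6.59 and 6.54 RPKM in the NPC samples. The groups did not overlap, and the log2 fold change was 0.61 ± 0.070 (SE; limma, adjusted p = 0.000351), or 0.59 without ESC replicate 3. Part of this gene overlaps 1600012H06Rik, and whether strand was used to separate their reads is not given in the sources used here. Smarca2 and Dpf3 also overlap other genes, none of them with values here, by up to 9521 and 25073 bases. The part of those genes in the reads was not tested.

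Dpf2 (BAF45d) had 7.29, 7.68 and 5.24 RPKM in the ESC samples and 10.6, 9.65 and 9.81 RPKM in the NPC samples. NPC samples were all above the ESC samples, by a log2 fold change of 0.52 ± 0.14 (SE; limma, adjusted p = 0.0165), or 0.37 ± 0.053 (SE) without ESC replicate 3. This was the least stable of the calls, lost without NPC replicate 1 (limma, adjusted p = 0.0649) and without NPC replicate 3 (limma, adjusted p = 0.0519), in a range of 0.000317 to 0.0649 over the alternatives.

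Dpf1 (BAF45b), which is known from neurons, was present in both cell types. It had 0.664, 0.691 and 0.650 RPKM in the ESC samples and 1.70, 1.69 and 1.65 RPKM in the NPC samples. The replicates were tight and the groups far apart, with a mean in NPCs of 2.51 times that in ESCs and a log2 fold change of 0.68 ± 0.044 (SE; limma, adjusted p = 2.18e-05), also 0.68 without ESC replicate 3. The size depended on the scale, with 0.38 under quantile normalization, 1.21 with a pseudocount of 0.1 and 1.31 with voom, all called higher (limma, adjusted p between 5.18e-07 and 0.00182 over the alternatives).

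Dpf3 (BAF45c), known from heart and skeletal muscle as well as from neurons, had 2, 6 and 0 reads in the ESC samples and 354, 368 and 437 reads in the NPC samples. Its RPKM of 0.0429, 0.0493 and 0.0494 in NPCs are small next to the read numbers, because the gene spans 273986 bases. All NPC samples lay far above the ESC samples, and the ratio of the summed reads, 1159 against 8, was 159 at equal depth (exact 95% interval 80.5 to 370, for counting error only). It was 419 (116 to 3461) without ESC replicate 2, which leaves 2 ESC reads, and 109.5 (55.4 to 254) without ESC replicate 3. On the log2(RPKM + 1) scale the change was 0.07 (limma without a filter, adjusted p = 2.15e-05), and 0.55 with a pseudocount of 0.1. Limma voom gave a log2 fold change of 7.70 ± 0.65 (SE, adjusted p = 4.74e-05, in a range of 9.15e-06 to 0.000935 over the alternatives). Of the 8 cardiac and smooth muscle markers, 6 rose (against 39.4% of all genes) and 1 (Myh6) fell (against 23.0%) in the limma fit without a filter, and Nkx2-5 was not called. The call of Myh6 was lost without ESC replicate 3 (limma, adjusted p = 0.0715), and their part in the rise of Dpf3 was not tested.

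Per kb of exons, the PHD finger genes summed to 51.2 ± 6.96 RPM in ESCs and to 85.9 ± 2.59 in NPCs (SD, n = 3 each). Dpf2 supplied 63.8% ± 4.11 of this sum in ESCs and 56.8% ± 1.10 in NPCs, and Phf10 supplied 28.6% ± 3.25 and 28.0% ± 0.456. Dpf1 went from 7.58% ± 0.920 to 11.2% ± 0.256 and Dpf3 from 0.0376% ± 0.0428 to 4.00% ± 0.429. Taken per gene span, as RPKM, the share of Dpf3 was 0.00234% in ESCs and 0.258% in NPCs, and that of Dpf1 was 5.92% and 9.14%. Phf10 and Dpf2 did not fall while Dpf1 and Dpf3 rose, so that the 4 genes were all at higher levels in NPCs.

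Set in order of their level per kb of exons, the subunits began with Actl6a in ESCs (105 RPM per kb), followed by Smarcc1, Smarca4 and Dpf2, whose ranges overlapped from each to the next through ESC replicate 3, although their order was the same in each ESC sample. Phf10, Smarcc2, Dpf1 and Smarca2 followed with ranges apart, and Dpf3 and Actl6b were last. In NPCs the order began with Smarca4 (87.0) and Smarcc1 (80.3), followed by Dpf2 (48.8), and Actl6a (39.7) and Smarcc2 (37.8) overlapped in rank 4 and 5. Phf10, Dpf1, Smarca2, Dpf3 and Actl6b came next, in this order and with ranges apart. On this scale Actl6a moved from rank 1 to rank 4. Per gene span, the order in NPCs began instead with Dpf2 (10.0 RPKM), Phf10 (6.62), Smarcc2 (6.55) and Smarca4 (6.39). The order in NPCs thus depended on the length used.

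**Figure D2:**
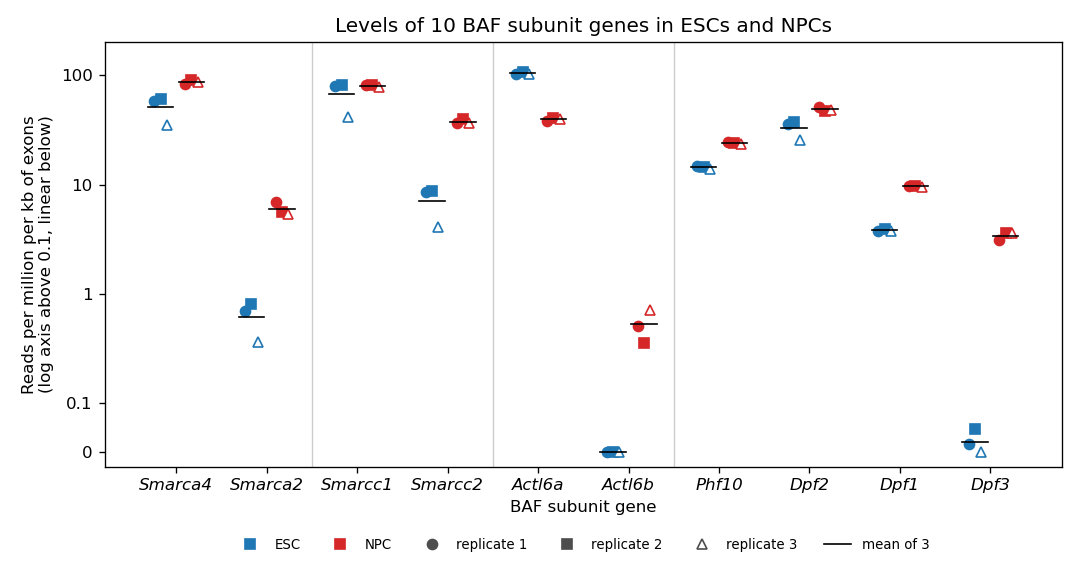
Level of the 10 BAF subunit genes in RPM per kb of exons (log axis above 0.1, linear below) in ESC replicates (blue) and NPC replicates (red), with 1 symbol for each replicate and a line at the mean of 3. Only Actl6a is lower in all NPC samples, Smarcc1 overlaps between the cell types, and the other 8 genes are higher in all NPC samples, as are 45.6% of the 18217 genes on 1 line each in the fit without a filter (27.3% are lower in all).

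**Figure D3:**
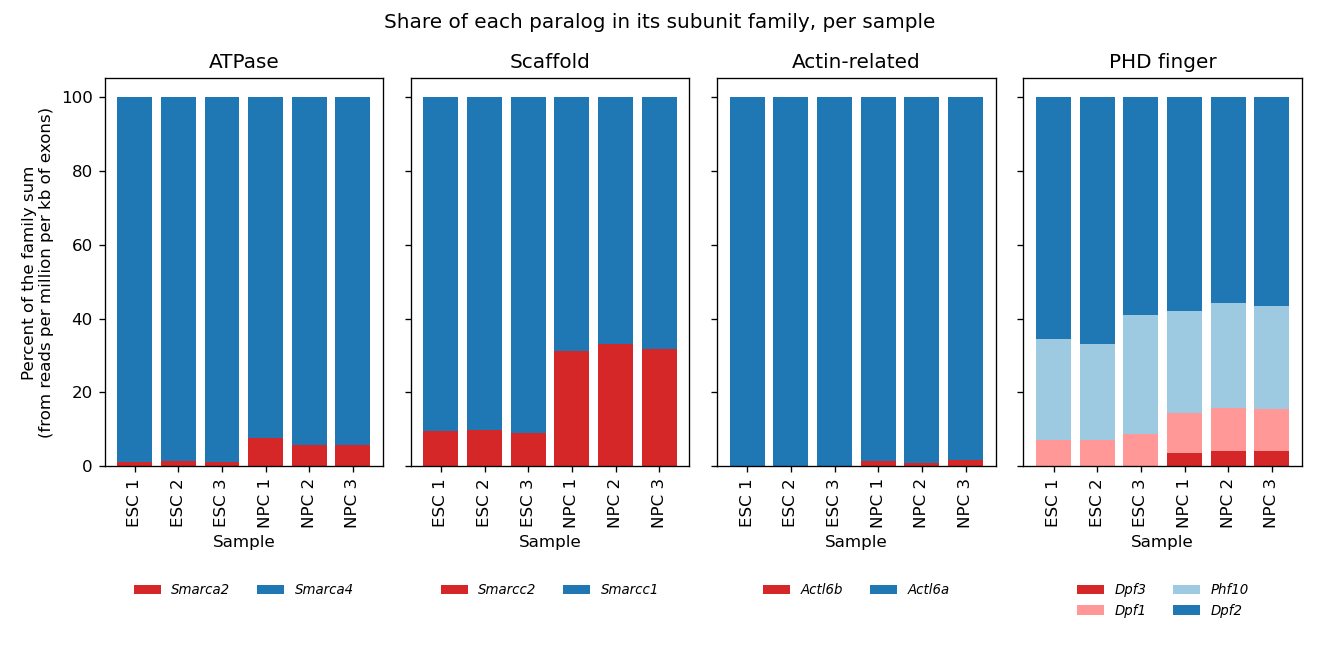
Percent of the summed level of each subunit family (RPM per kb of exons) that each paralog makes up, with 1 stacked bar for each sample. Smarcc2 goes from 9.52% to 32.0% of the scaffold sum on average and Smarca2 from 1.18% to 6.47% of the ATPase sum, whereas Actl6b stays at or below 1.77% of the actin-related sum.

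The remaining BAF genes were taken as a list. Of its 21 genes, 15 were tested, 6 rose (against 33.1% of all genes tested), 2 fell (against 34.7%) and 7 were not called. The median log2 fold change of the list was 0.08, beside -0.04 over all genes tested, and 0.13 beside -0.06 without ESC replicate 3. The largest rises were those of Bcl7a (1.57, limma, adjusted p = 8.73e-05) and of the core subunit Smarce1, or BAF57 (1.28, limma, adjusted p = 2.92e-05), and the falls were those of Actb, which encodes the β-actin of the complex and of the cytoskeleton (-0.95, limma, adjusted p = 0.0024), and of Bcl7b (-0.26, limma, adjusted p = 0.0301). Without ESC replicate 3, 8 of these genes rose (against 40.5% of all genes) and 6 fell (against 46.6%), and 1 fell without ESC replicate 2 or without any 1 of the NPC replicates.

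Several of these genes also have a paralog in the complex. Arid1a, which defines the canonical form of the complex together with Arid1b, rose from 4.08 RPKM ± 1.87 to 8.81 RPKM ± 0.226 (SD, n = 3 each; log2 fold change 1.03, limma, adjusted p = 0.0199, and 0.67 without ESC replicate 3). Arid1b was below the filter with 0.122 and 0.445 RPKM on average, a ratio of the means of 3.65 beside 2.16 for Arid1a. It had 1850, 1797 and 654 reads in the ESC samples and 4884, 4230 and 4967 in the NPC samples, so the groups did not overlap. The BAF60 genes Smarcd1 and Smarcd2 were not called and averaged 15.3 and 8.49 RPKM in ESCs and 12.9 and 7.20 RPKM in NPCs, but both were called lower without ESC replicate 3 (limma, adjusted p = 0.000607 and 0.0434). Smarcd3, which overlaps Chpf2, was below the filter with 0.417 and 0.562 RPKM on average.

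Ss18 and Ss18l1, the latter also called CREST and known as the neuronal member of the pair, differed in pattern. Ss18 averaged 2.44 RPKM in ESCs and 2.26 RPKM in NPCs and was not called, but was called lower without ESC replicate 3 (log2 fold change -0.12, limma, adjusted p = 0.0225), and Ss18l1, below the filter, had 0.312, 0.301 and 0.158 RPKM in ESCs and 0.909, 0.876 and 0.899 RPKM in NPCs. Bcl11a and Bcl11b, zinc finger proteins of the complex known from the nervous system and from lymphocytes, went from means of 0.00265 and 0.000979 RPKM to 0.614 and 0.128 RPKM. Of the BCL7 genes, Bcl7a and Bcl7c rose and Bcl7b fell. Bcl7c had a log2 fold change of 0.28 (limma, adjusted p = 0.00689).

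Actl6a is known to be repressed in developing neurons by miR-9-3p and miR-124, whose genes are in turn repressed by REST, the silencer of neuronal genes. Rest had 18.3, 18.2 and 9.67 RPKM in the ESC samples and 6.94, 7.48 and 7.09 RPKM in the NPC samples. Every NPC sample was below every ESC sample, with a log2 fold change of -0.95 ± 0.24 (SE; limma, adjusted p = 0.012) and of -1.24 without ESC replicate 3. Of the 9 genes listed around REST and these miRNAs, 8 were tested, 5 rose (against 33.1% of all genes), 1 fell (against 34.7%) and 2 were not called, with a median of 0.61 beside -0.04 over all genes. The largest rises were those of the splicing regulator Ptbp2 (1.33, limma, adjusted p = 4.90e-05) and of the phosphatase Ctdsp1 (0.92, limma, adjusted p = 0.000265). Without ESC replicate 3, 5 of these genes rose (against 40.5% of all genes) and 3 fell (against 46.6%).

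MicroRNAs were not measured. A match to the seed of miR-9-3p in Actl6a was found by its letters alone, and whether it is the site of the known repression was not tested. The mature sequence of miR-9-3p from RefSeq (GRCm38.p6) is shown with the seed of bases 2 to 8 in capitals. Beside it stands the match in the 3′ untranslated region of Actl6a, on the plus strand at chr3:32726629-32726650, with the bases complementary to the seed in capitals.
mmu-miR-9-3p: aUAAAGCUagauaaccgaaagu
Actl6a: tcaacgtctgtAGCTTTAgtac
The match starts at base 38 of the 371 bases of this region in GENCODE M21. The letters AGCTTTA, searched on the transcribed strand alone, occurred in 2.71% of the 3′ untranslated regions of 1918 genes with a like length (the longest region of each gene). Among the other subunits, Smarcc1 had 2 matches and Smarca2 had 1, in regions of 2396 and 952 bases, for which 19.7% and 7.62% of regions of like length hold a match. The other 7 genes had none. A match of these letters is a description and no measure of repression.

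The other families of remodellers were described by the same counts, beside which 33.1% of all genes tested rose and 34.7% fell. Of 11 ISWI genes 8 were tested, 2 rose and 1 fell, with a median log2 fold change of 0.14, or 0.09 without ESC replicate 3. The ATPase Smarca5 fell (-0.55, limma, adjusted p = 0.00123), and Baz1b and Rsf1 rose (0.77 and 0.41, limma, adjusted p = 0.0265 and 0.0239), with 0.49 and 0.27 without ESC replicate 3. Baz2a had a larger negative change but was not called (-1.12, limma, adjusted p = 0.0565). Without ESC replicate 3 it was called lower (-1.65, limma, adjusted p = 3.43e-08). Of 20 CHD and NuRD genes 13 were tested, 3 rose and 2 fell, with a median of 0.33, or 0.20 without ESC replicate 3. The ATPase Chd3 had the largest change, from 1.80, 1.72 and 0.699 RPKM in ESCs to 20.3, 19.0 and 16.9 RPKM in NPCs (log2 fold change 3.07 ± 0.21 (SE), limma, adjusted p = 2.65e-05), next to Mta1 (0.92), Hdac1 (-1.05) and Gatad2a (-0.45).

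Actl6a is also a subunit of the INO80, SRCAP and TIP60 complexes. Of 31 other genes of these complexes 25 were tested, 5 rose and 7 fell (against 33.1% and 34.7% of all genes), with a median log2 fold change of -0.09. The largest changes were those of Trrap (1.04, and 0.67 without ESC replicate 3), Mbtd1 (0.69), Ino80e (-1.18) and Mcrs1 (-0.83). Ino80e had 8.84, 9.10 and 7.79 RPKM in ESCs and 2.98, 3.49 and 3.24 RPKM in NPCs, and its fall was about as large as that of Actl6a. Without ESC replicate 3, where 40.5% of all genes rose and 46.6% fell, 4 ISWI genes rose and 3 fell, 8 CHD and NuRD genes rose and 4 fell, and 8 genes of the INO80, SRCAP and TIP60 complexes rose and 11 fell.

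Genes with values most like those of the subunits were taken as those with the smallest Euclidean distance of log2(RPKM + 1) over the 6 samples. For Dpf1 these were Ugp2, Accs and Stag2, at distances of 0.116, 0.123 and 0.142, and no gene lay within 0.1. For Smarca2 they were Mllt3, Tmem260 and Gbp7, at 0.0366, 0.0369 and 0.0416. Because low genes all lie close together on this scale, 148 lines of the tables were within 0.1 of Smarca2 and 2113 of Dpf3. The nearest to Dpf3 were Muc4, Cacna1c and Ntn4.

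The positions of the subunit genes were compared with the nucleolus-associated domains (NADs) that the study mapped by Nucleolar-DamID, given as 1769 NADs in ESCs and 1447 in NPCs on mm10. These maps come from other cultures than the RNAseq, engineered E14 lines and NPCs made from them, in which the methylase fusions H2B-Dam or H2B-Dam-NoLS were induced for 15 h by doxycycline (100 ng/ml) together with Shield1 (1 µM). The NPCs were dissociated and plated for this step. Of the 10 genes, 2 overlapped a NAD of ESCs and 0 a NAD of NPCs, beside 27.4% and 21.6% of all 20414 genes with a position, and 22.9% and 20.0% of the 6983 of them that were tested. The authors kept domains found in both of their experiments and give each 1 score, so the spread of the score between experiments is not given here.

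Actl6a, on chromosome 3 from 32708546 to 32726973, lay entirely in a NAD of 699.5 kb from 32100489 to 32799994. Its score was 0.0188, below the median of 0.0256 of the list, and no NAD of NPCs lay within 773 kb. Actl6a was thus outside NADs in the cells in which its RNA was lower. Smarcc1, on chromosome 9 from 110132024 to 110240178, had 63.7% of its length, with the transcription start, in a NAD from 110099899 to 110200932 with a score of 0.0569, rank 193 in the list, and lay 132 kb from the nearest NAD of NPCs. Its RNA level overlapped between the cell types.

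The other 8 genes lay outside the NADs of both cell types. Dpf3, on chromosome 12 from 83213751 to 83487736, was the nearest to one, at 112 kb in both lists. Smarca2, on chromosome 19 from 26605073 to 26778321, lay 305 kb from a NAD in ESCs and 1022 kb in NPCs, and Actl6b, on chromosome 5 from 137553361 to 137569582, lay 331 kb and 831 kb away.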

How the data were processed

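RNAseq of 3 ESC and 3 NPC samples and the NAD lists were used. The authors took out rRNA reads by SortMeRNA, trimmed by Trimmomatic, mapped by STAR (mm10) and deposited RPKM. Kits with and without strand are named by different sources, and whether strand or intronic reads were counted was not tested. For NADs, the authors normalized H2B-Dam-NoLS to H2B-Dam and deposited 1 score per domain.

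Limma 3.58.1 (R 4.3.3, lmFit, eBayes with trend) was run on log2(RPKM + 1) over 7289 of 22064 lines (153 symbols stand on more than 1). These lines had a mean of at least 1 RPKM, and genes were called at a Benjamini-Hochberg adjusted p under 0.05. Voom took genes with a mean of at least 10 reads. Python 3.11.15 with pandas 2.3.3, scipy 1.17.1 and matplotlib 3.10.9 did the rest. Exon lengths of the subunits are of curated RefSeq mRNAs (GRCm38.p6). All RefSeq exons were counted for the groups of genes by exon length and for the check of whole read numbers. Reads were recovered from RPKM, RefSeq spans and the steps between low values.

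Named were the subunits, BAF genes with a paralog, up to 2 called genes per direction and list of remodellers by size of change, the most abundant and label-defining markers, and the 3 nearest genes by distance (for Actl6b not reported here). Markers at 0, other neuron and muscle markers, and Baz2a were chosen after their values were seen. Members and lists were chosen with earlier results of these data known. A comparison of paralog proteins was not analysed here.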

Additional observations from a re-analysis of the deposited data

How the results depend on the processing

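The 10 subunits kept their side of the threshold in 138 of 141 alternatives of their fold changes, and lost the call in 3, those of Smarca4 and Dpf2 named above. The sign turned in 1, that of Smarcc1 without ESC replicate 3, which was not called in either fit. Scaling by the median of ratios and by quantiles moved the median of all genes by 0.03 and -0.04 on the log2 scale. Over all genes, 2415 rose and 2528 fell, against 7294 and 4247 without a filter, 598 and 1221 with a mean of at least 5 RPKM, 1096 and 901 with a log2 fold change of at least 1, and 6371 and 4014 with voom on recovered reads of 14112 genes (chosen after seeing the data). Of the subunits, 8 rose without a filter and with voom, 3 of 4 tested rose at 5 RPKM (22.2% of 2696 genes), and 1 of 7 rose by at least 1 (15.0% of all). Of the other BAF genes, 12 of 21 rose without a filter (39.4% of all) and with voom (45.1%). At 5 RPKM 2 of 5 rose and 1 fell (22.2% and 45.3% of all), with the fold threshold 3 rose and 0 fell (limma, also 0 at an unadjusted p under 0.05; with voom 0 at either p), and 1 fell with median-of-ratios scaling. With 1 replicate left out, 2033 to 2955 genes rose and 1976 to 3397 fell in all, 4 to 5 subunits rose and 1 fell, and 5 to 8 other BAF genes rose and 1 to 6 fell, the 6 without ESC replicate 3. The cause was not tested.

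The deviations of same-numbered ESC and NPC samples had correlations of 0.11, -0.080 and 0.033 across genes. Those of differently numbered samples lay between -0.085 and 0.085. The ESC deviations carry the difference of the ESC sample that stood apart, so these values cannot decide whether the replicate numbers pair the samples. With the replicate number as a block, 2266 genes rose and 2367 fell, 5 subunits rose and 1 fell, and 1 other BAF gene fell.

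The log2 ratio from ESCs to NPCs changed by 1.54 for Smarcc2 over Smarcc1, with 2.07 at a pseudocount of 0.1 and 2.00 per kb of exons, and by 1.29 for Actl6b over Actl6a, with 1.97 and 1.98. That of Smarca2 over Smarca4 was -0.41 and reversed to 0.58 and 1.32, since a pseudocount of 1 is far above the RPKM of Smarca2. With 1 replicate left out it lay between -0.51 and -0.22, and that of Actl6b over Actl6a between 1.27 and 1.32. The size of this last ratio depends on the pseudocount, because Actl6b was at 0 in all ESC samples. The change of the Dpf3 share in the PHD finger sum was 0.255 percentage points per gene span and 3.96 per kb of exons. Counted with NADs at or above the median score, 1 subunit (Smarcc1) overlapped a NAD of ESCs. The share of all genes that overlap these NADs is not given here. Depth limits Actl6b, with 15 to 36 reads in an NPC sample.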
